A study of Mus musculus with 200 samples.

Results

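The N2 embryos of the first flowcell that fall in a common window of development were compared by the genotype of the mother that carried them. The members are the embryos sequenced in lanes A to G whose labels give a maternal strain and 46 to 51 somites and that also have genotypes. There were 46 of them, out of 168 N2 columns in the series, of which 154 have both a labelled mother and genotypes. All were whole embryos at about E11.5, dissected free of membranes and placenta and profiled one by one with 3SEQ, a method that sequences the 3′ ends of polyadenylated RNA. C57BL/6J (B6) is the reference laboratory strain, CAST/EiJ (Cast) a wild-derived strain of another subspecies, and the F1 parents came from B6 females and Cast males.

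In 17 embryos the mother was B6 and the father F1, and in 29 the mother was F1 and the father B6. Both kinds of embryo are therefore backcross animals with the same mitochondria and, on average, the same share of Cast genome on the autosomes. The share of genotyped genes that were heterozygous was 48.1% ± 10.1 with B6 mothers (SD, n = 17 embryos) and 47.4% ± 9.04 with F1 mothers (SD, n = 29). The B6-mother embryos came from 5 litters (2 in lane A, 2 in lane B and 1 embryo in lane F) and the F1-mother embryos from 8 litters (3 in lane C, 3 in lane D, 2 each in lanes E and G, with 2 litters split over a pair of lanes). B6 litter 3 and F1 litters 1, 8 and 9 are 1 embryo each. No lane held both kinds of mother, so the mother and the lane cannot be told apart by any test within a lane. Litters are named by the mother's strain and the litter number in the labels.

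Before birth a mammalian mother reaches the embryo through the placenta, by what she supplies of glucose, lipids, oxygen and hormones and by the space and timing that the uterus allows. An effect of the mother's genotype that does not pass through the alleles inherited by the embryo is called a maternal effect. In a backcross it can be sought because embryos with, on average, the same autosomal share of Cast genome develop in mothers that differ. The groups still differ in their sex chromosomes. With B6 mothers every X was B6 and the Y of sons was Cast. With F1 mothers the mother's X could carry Cast alleles and the Y of sons was B6. Autosomal Cast alleles came from the father with B6 mothers and from the mother with F1 mothers. Lipid-responsive nuclear receptors such as the PPARs are among the best known links between nutrient supply and gene expression, and *Angptl4*, a secreted inhibitor of lipoprotein lipase, is one of their classical targets.

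The groups were well matched in stage. Litter means of somite number averaged 48.8 in both groups (exact permutation test over litters, two-sided, p = 1). Litter means of reads on genes averaged 3045089 per embryo for B6 mothers and 2341432 for F1 mothers (exact permutation p = 0.0202, 0.0808 after Benjamini-Hochberg adjustment over 4 measures). The heterozygous share (p = 0.864) and the share of females (35.7% against 59.7%, p = 0.253) gave larger p in the same test. Depth per embryo ranged from 2318986 to 4050831 reads for B6 mothers and from 1164564 to 3254085 for F1 mothers. At these depths a gene at an RPM of 5 (the gene's reads scaled to a common total of reads on genes), the lowest mean tested, rests on few reads in each embryo.

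The lanes did not divide by mother alone. On the scale of log2(RPM + 1), the first principal component held 46.7% of the variance over 8421 autosomal genes, and it set lanes D, E and G apart from lanes A, B and C. Its median was 39.3 in lane A, 45.0 in lane B and 31.9 in lane C, against -41.7, -34.4 and -43.8 in lanes D, E and G, and the 1 embryo of lane F lay between them at 6.15. Lane C held F1 mothers, as did D, E and G, but it lay with the B6-mother lanes. Between lanes A and C, which hold different mothers, the median absolute difference of lane means was 0.20 and 2.11% of genes differed by 2-fold or more. Between lanes C and D, which both hold F1 mothers, these values were 0.42 and 14.1%. For comparison, lanes A and B, both of B6 mothers, differed by a median of 0.18, and lanes D and G, both of F1 mothers, by 0.24. Lane C embryos had 49 to 51 somites, while the other lanes with more than 1 embryo reached down to 46.

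**Figure D1:**
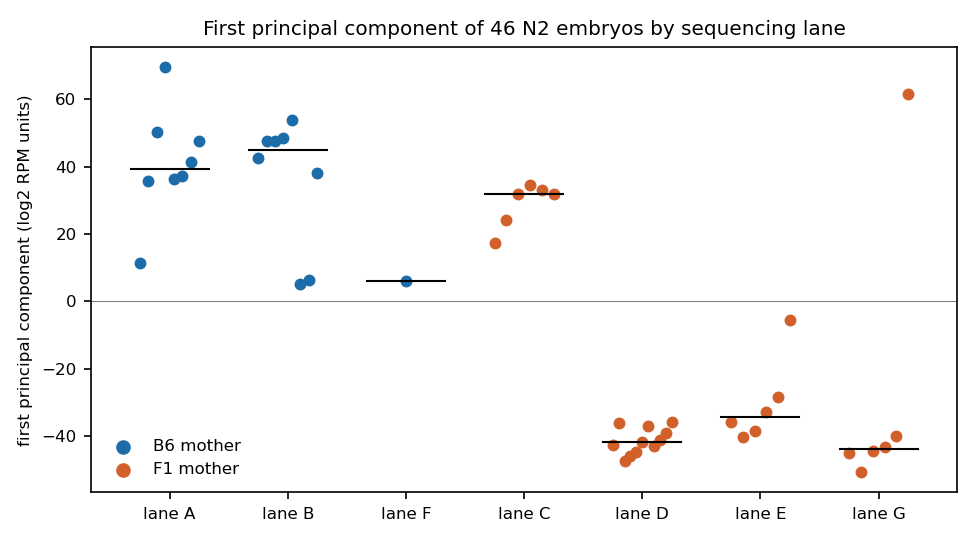
First principal component of log2(RPM + 1) over 8421 autosomal genes, on the vertical axis, for each of 46 embryos grouped by lane; blue points are embryos of B6 mothers, orange points embryos of F1 mothers, and black lines lane medians. Lane C, of F1 mothers, lies with lanes A and B, and 1 embryo of lane G lies at 61.7, away from the other embryos of its lane.

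One library stood apart. It was an embryo of F1 litter 7 with 46 somites, in lane G, and its median Spearman correlation with the other 45 libraries over genes was 0.81, the lowest of all. It was closer to lanes A and B (median correlations 0.87 and 0.87) than to its own lane (0.76), and it had fewer genes detected (12938) than the other lane G libraries (13382 to 14262). The number of genes called and the values of *Angptl4*, *Gpx3* and *Polm* are given with and without it, and other lane and litter means include it. The cause was not tested.

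Tested embryo by embryo, 143 genes were called between the mothers, which is 1.70% of the 8421 tested (Mann-Whitney U test on RPM, two-sided, Bonferroni-adjusted p under 0.01, 17 against 29 embryos). Of these, 115 were higher with B6 mothers (1.37% of genes tested) and 28 with F1 mothers (0.333%). The 2 directions differed in level and size. Genes higher with B6 mothers were well expressed, with a median of 158 RPM, and differed little: the median fold was 1.33 and none reached 2-fold. Genes higher with F1 mothers were lower, with a median of 12.3 RPM in B6-mother and 41.4 RPM in F1-mother embryos, and 19 of the 28 differed by at least 2-fold, with a median fold of 2.88. The split depended on the scaling, being 75 against 52 with TMM-scaled totals and 87 against 54 with totals that leave out the globin genes. Without the library that stood apart 280 genes were called, 148 of them higher with B6 mothers and 132 with F1 mothers.

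Embryos of 1 litter share a mother, a pregnancy and mostly a lane, so that the litter is the unit in which mothers were sampled. With the reads of each litter summed (edgeR's quasi-likelihood test, 5 against 8 litters), 0 genes passed a Benjamini-Hochberg adjusted p of 0.05. The smallest adjusted p was 0.0802, for *Angptl4*, and 409 genes (4.86% of those tested) lay under an adjusted p of 0.1, 110 of them (1.31%) higher with B6 mothers and 299 (3.55%) with F1 mothers. An unadjusted p under 0.05 was reached by 2087 genes (24.8%), 722 of them higher with B6 mothers (8.57%) and 1365 with F1 mothers (16.2%). DESeq2 on the same sums called 871 genes. In the lane test, with the reads of each lane summed (3 against 4 lanes), edgeR again called 0 genes, with 1580 (18.8%) at an unadjusted p under 0.05, and DESeq2 called 437. The means of the litters did not overlap at all between the mothers for 47 genes higher with B6 mothers (0.558% of genes tested) and 33 higher with F1 mothers (0.392%). Of these, 19 were among the 115 called and 3 among the 28. Lane means did not overlap for 60 of the 115 and 17 of the 28, and for 5.18% of all genes tested in the first direction and 6.22% in the second.

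*Angptl4* (chr17:33910695-33918520 on mm9, minus strand) had the smallest litter-test p of all genes. In embryos of B6 mothers it lay between 88.8 and 115 RPM with a median of 99.9, and in embryos of F1 mothers between 35.6 and 93.2 RPM with a median of 60.4. The single F1-mother embryo above 80.6 RPM was the library that stood apart, and without it the 2 groups of embryos did not overlap. The B6 litter means were 101 RPM (litter 12), 101 (litter 16), 96.5 (litter 18), 91.3 (litter 3) and 106 (litter 8). The F1 litter means were 55.6 (litter 1), 55.3 (litter 2), 46.0 (litter 3), 68.9 (litter 4), 68.2 (litter 6), 61.8 (litter 7), 76.1 (litter 8) and 64.6 RPM (litter 9). Every B6 litter thus lay above every F1 litter, at 99.1 ± 5.56 RPM against 62.1 ± 9.49 (SD, n = 5 and 8 litters). The log2 fold change was 0.67 ± 0.10 (SE, edgeR adjusted p = 0.0802), and the embryo test gave an adjusted p of 0.000237 (Mann-Whitney U test). The lane C embryos, all of F1 mothers, had 69.4 ± 5.12 RPM (SD, n = 6), which is below all 17 embryos of B6 mothers. These 6 embryos took part in the test that ranked *Angptl4* first. Lane C holds no B6 mother, so its values do not separate the mother from the lane. Against the F1 mothers of lane C alone the log2 fold change was 0.59 ± 0.10 (SE), and against those of lanes D, E and G alone it was 0.75. Without the library that stood apart the log2 fold change over all litters was 0.69 (edgeR adjusted p = 0.0626). *Angptl4* was heterozygous in 47.1% of B6-mother and 41.4% of F1-mother embryos. A linear model with the embryo's own genotype at the gene gave 0.76 for the mother (Bonferroni-adjusted p = 1.98e-08) and 0.03 for the genotype, both as log2 differences. That model counted embryos of 1 litter singly, so its p does not measure the spread between mothers, for which the litter test gave 0.0802.

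The other genes with the smallest litter-test p and higher levels with B6 mothers were of many kinds. *Sh3gl1* encodes an endophilin, which bends membranes in endocytosis. Its B6-mother embryos lay between 127 and 170 RPM (median 152) and its F1-mother embryos between 71.9 and 140 RPM (median 99.96), so the embryos overlapped. The litter means did not, at 154 ± 5.55 against 100.1 ± 15.8 RPM (SD, n = 5 and 8 litters here and below), for a log2 fold change of 0.60 ± 0.11 (SE). *Fgfrl1* encodes a fibroblast growth factor receptor without a kinase domain. It ranged from 144 to 187 RPM (median 161) against 80.02 to 144 RPM (median 112), and its litters did not overlap either, with a log2 fold change of 0.46 ± 0.08 (SE). *Eif2b1*, a subunit of the exchange factor that recharges the initiation factor eIF2, ranged from 54.2 to 85.98 RPM (median 64.8) against 23.5 to 51.5 RPM (median 43.6), with no overlap between the embryos of the 2 mothers.

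*Nkx2-5*, a homeodomain factor of the heart, was the lowest of these genes, at 9.08 to 20.7 RPM (median 12.9) against 3.47 to 12.4 RPM (median 6.70). Its log2 fold change of 0.81 ± 0.18 (SE) was the highest among the 12. *Ifitm2*, an interferon-induced membrane protein, had litter means of 244 ± 29.6 RPM against 162 ± 26.3, and *Lmbrd1*, which carries cobalamin out of lysosomes, 24.4 ± 1.79 against 15.6 ± 3.54. For both the litters did not overlap. For *Prex1* (a Rac exchange factor), *Itm2c* (a membrane protein of the BRICHOS family), *Prmt2* (an arginine methyltransferase), *Phf13* (a reader of methylated histone H3) and *Rnf122* (a RING-finger ubiquitin ligase) some litters overlapped, and the log2 fold changes lay between 0.39 and 0.50. All 12 had a litter-test adjusted p between 0.0802 and 0.0998 (edgeR), and 11 of them were called in the embryo test, where *Lmbrd1* had an adjusted p of 0.0403. The *Prmt2* entry overlaps *Mir678*, and that of *Sh3gl1* overlaps *Mpnd*, so that their reads may not be separate.

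**Figure D2:**
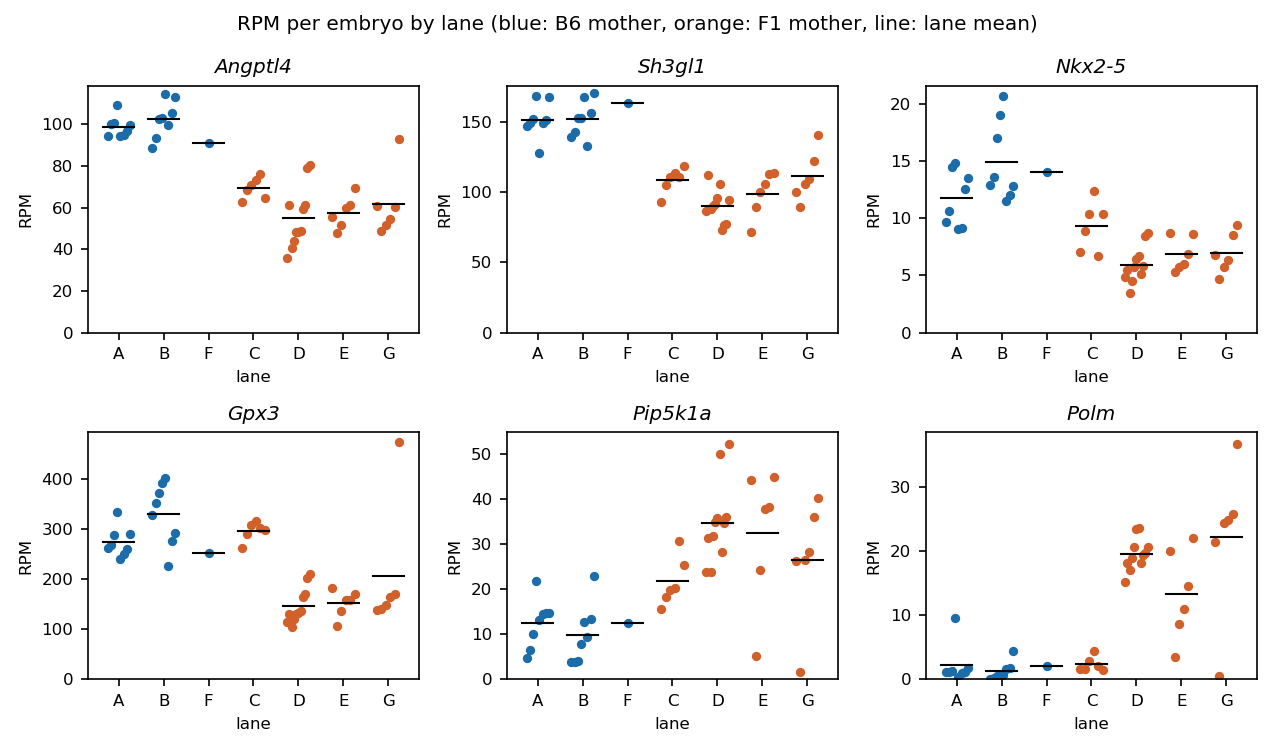
RPM (vertical axes, from 0) of 6 genes in each of 46 embryos, by lane; blue points are embryos of B6 mothers, orange points embryos of F1 mothers, and black lines lane means. *Angptl4* and *Sh3gl1* are lower in lane C, of F1 mothers, than in lanes A, B and F, while for *Gpx3* and *Polm* lane C, at 296 and 2.30 RPM, lies with those lanes and away from lanes D, E and G.

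On the side of the F1 mothers the genes with the smallest litter-test p were expressed at low levels in embryos of B6 mothers. *Pip5k1a*, a kinase that makes the membrane lipid PI(4,5)P2, lay between 3.81 and 22.9 RPM (median 12.6) in B6-mother embryos and between 1.65 and 52.4 RPM (median 30.8) in F1-mother embryos, where the lowest value was again the library that stood apart. Its litter means were 11.9 ± 3.47 against 30.8 ± 7.79 RPM and did not overlap, with a log2 fold change of -1.41 ± 0.25 (SE). *Lsm3*, a subunit of the ring of proteins that binds U6 small nuclear RNA, ranged from 6.63 to 41.2 RPM (median 19.5) against 6.6 to 118 RPM (median 47.0), with a log2 fold change of -1.31 ± 0.28 (SE). *Hoxb3*, a homeobox gene of the hindbrain and anterior trunk, ranged from 5.27 to 21.1 RPM (median 14.0) against 6.19 to 53.1 RPM (median 28.7), and *Ptprd*, a receptor tyrosine phosphatase, from 7.85 to 22.2 RPM (median 12.5) against 12.8 to 59.9 RPM (median 25.6). For these 4 genes the embryos overlapped and the litter means did not.

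The other 8 were *Ktn1* (kinectin, which binds kinesin), *Syde1* (a GTPase-activating protein), *Shc2* (a signalling adaptor), *Sdhaf1* (an assembly factor of succinate dehydrogenase), *Hdac4* (a class II histone deacetylase), *Nfasc* (neurofascin, a cell adhesion molecule of axons), *Itfg2* (part of a complex that restrains mTORC1) and *Taf1b* (a subunit of the RNA polymerase I initiation factor). Their log2 fold changes lay between -2.29 (*Taf1b*) and -0.58 (*Nfasc*), and their litter-test adjusted p was 0.0998 for each (edgeR). In the embryo test *Shc2* alone of the 12 was called, at an adjusted p of 0.00123 (Mann-Whitney U test). *Shc2* ranged from 5.71 to 12.3 RPM (median 8.37) in B6-mother embryos and from 9.53 to 29.8 RPM (median 15.3) in F1-mother embryos. Lane C lay between the B6-mother lanes and lanes D, E and G for 9 of these 12 genes, the exceptions being *Sdhaf1*, *Nfasc* and *Itfg2*, where it overlapped lanes D, E and G. It held 21.7 RPM of *Pip5k1a*, where the B6-mother lanes held 9.72 to 12.6 and lanes D, E and G 26.6 to 34.8. For *Taf1b* lane C had 5.87 ± 1.49 RPM (SD, n = 6), next to 3.71 ± 2.20 in B6-mother embryos (n = 17) and far from 24.4 ± 12.0 in lanes D, E and G (n = 23).

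*Gpx3* and *Polm* are a pair of genes that the study singled out beside *Angptl4*. The study called them from its N2 embryos of both flowcells, a larger set than the one used here. It also reports the maternal effect on *Angptl4* and *Gpx3* by qPCR, which it ran to exclude a batch effect. Only a few of the candidates it ran by qPCR passed, for which it names low consistency between chips. The study further states that its maternal effects were similar when expression was averaged by litter, and in females with B6 X chromosomes only. The values below are sequencing counts of the first flowcell only. *Gpx3* encodes the extracellular glutathione peroxidase. It lay between 225 and 401 RPM (median 287) in the 17 embryos of B6 mothers and between 104 and 474 RPM (median 163) in the 29 of F1 mothers. By lane, its means were 274, 329 and 252 RPM in lanes A, B and F, 296 in lane C, and 146, 152 and 206 in lanes D, E and G. Without the library that stood apart the lane G mean was 152 RPM (n = 5). The 6 lane C embryos, at 261 to 315 RPM, lay inside the range of the B6-mother embryos and above 22 of the 23 embryos of lanes D, E and G, which reached 209 RPM without the library that stood apart. Against the F1 mothers of lane C the log2 fold change was 0.03 ± 0.14 (SE), and over all litters it was 0.40 ± 0.19 (SE, edgeR adjusted p = 0.208), or 0.46 without that library (adjusted p = 0.157). *Gpx3* (chr11:54715955-54723879 on mm9, plus strand) was not called in the embryo test (adjusted p = 0.839).

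*Polm* (chr11:5727863-5738019 on mm9, minus strand) encodes DNA polymerase mu, which works in the joining of broken DNA ends. It lay between 0.00 and 9.51 RPM (median 1.13) in embryos of B6 mothers. In lane C it lay between 1.44 and 4.39 RPM (median 1.80), and in lanes D, E and G between 0.41 and 36.6 RPM (median 19.6), or from 3.43 RPM without the library that stood apart. The F1 litters split accordingly, with means of 2.59, 2.01 and 1.44 RPM in litters 4, 8 and 9 of lane C and of 13.2 to 22.4 RPM in the other 5. The log2 fold change over all litters was -2.93 ± 0.77 (SE, edgeR adjusted p = 0.0998), and -3.51 against lanes D, E and G alone. Without the library that stood apart it was -3.01. *Polm* was under the filter of 5 RPM in the comparison with lane C alone. Over embryos, on the scale of log2(RPM + 1), B6 mothers averaged 1.16 ± 0.81 (SD, n = 17) and lane C 1.66 ± 0.45 (SD, n = 6), with an exact permutation p of 0.185 (two-sided, chosen after the values were seen, embryos of 1 litter counted singly).

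The place of lane C was also measured over all genes called. The calls counted the 6 lane C embryos as F1 mothers, so the choice of these genes itself moves lane C towards the F1 side, and the values below are descriptions. A gene was placed by whether its mean log2(RPM + 1) in lane C was nearer to the B6-mother embryos or to lanes D, E and G. Lane C was nearer to the B6 mothers for 82 of the 115 genes called higher with B6 mothers and for 23 of the 28 called higher with F1 mothers, and for 73.8% of all genes tested. The comparisons with lane C and with lanes D, E and G share the B6-mother embryos. Against the F1 mothers of lane C alone the 115 genes had a median log2 fold change of 0.27 and the 28 genes one of -0.34 (24 of them passed the filter there), and against lanes D, E and G alone the medians were 0.54 and -1.88. With only lane C as the F1 mothers 0 genes were called in the litter test (688, or 8.37%, at an unadjusted p under 0.05 in edgeR). The embryo test could call none there, since with 17 against 6 embryos even complete separation gives an adjusted p of 1 over 8222 genes. With only lanes D, E and G, 2941 genes (35%) were called in the litter test and 844 (10.0%) in the embryo test.

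**Figure D3:**
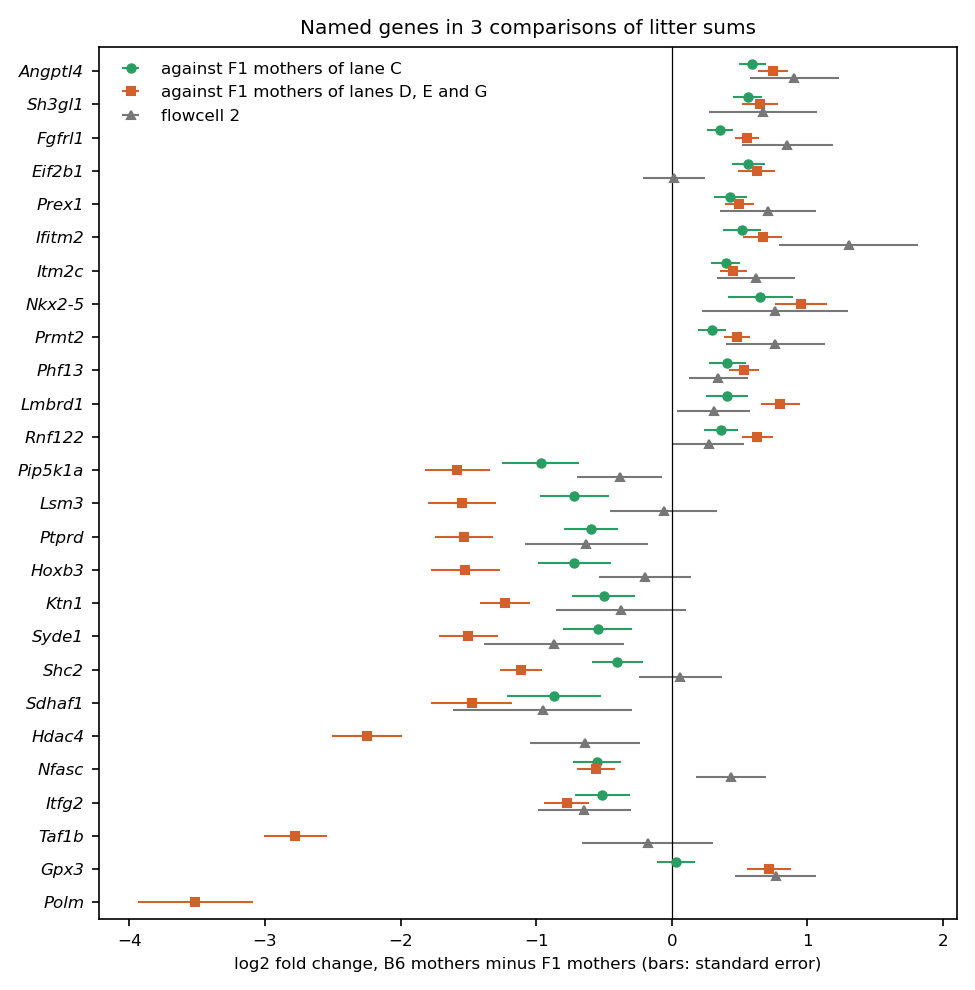
Log2 fold change of litter sums, B6 minus F1 mothers (horizontal axis, bars are standard errors from edgeR), for the 24 genes of smallest litter-test p and for *Gpx3* and *Polm*, against the F1 mothers of lane C (green), against those of lanes D, E and G (orange) and in flowcell 2 (grey). A missing point did not pass the filter of 5 RPM. For *Angptl4* the 3 values are 0.59, 0.75 and 0.90, and for *Gpx3* they are 0.03, 0.71 and 0.77.

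Other embryos of the same window of somite number were sequenced in the 7 lanes of the second flowcell. There were 37 from 11 litters of B6 mothers and 15 from 4 litters of F1 mothers, with 2 litters present in both flowcells. These embryos took no part in the calls above. They were not matched in stage. B6-mother embryos spread over the whole window, and nearly all F1-mother embryos lay in its upper part. Lanes H, I, J, K and N held only B6 mothers, lane L only F1 mothers, and lane M both. The parts of stage and lane in the values of this flowcell were not tested. Of the 115 genes called higher with B6 mothers, 109 (94.8%) were again higher with B6 mothers there, with a median log2 fold change of 0.72, against 61.9% and 0.19 over the 8277 genes tested in both. Among all genes with a positive log2 fold change in flowcell 1, 80.3% were higher with B6 mothers there, with a median of 0.48. Of the 28 called higher with F1 mothers, 27 could be measured and 7 (25.9%) were higher with B6 mothers and 20 (74.1%) lower, with a median of -0.29. Among all genes with a negative log2 fold change in flowcell 1, 56.3% were lower with B6 mothers there, with a median of -0.09. *Angptl4* had a log2 fold change of 0.90 ± 0.33 (SE, edgeR unadjusted p = 0.0138), *Ifitm2* 1.30 ± 0.51 and *Eif2b1* 0.01 ± 0.23. By litters, the second flowcell alone gave 0 genes at an adjusted p under 0.05 (edgeR), with 1228 of 10253 (12.0%) at an unadjusted p under 0.05, and the interaction of mother and flowcell gave 0 of 9799, with 555 (5.66%) at an unadjusted p under 0.05.

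Grouped by function, the genes called higher with B6 mothers held 4 of 74 subunits of oxidative phosphorylation, all of complex I. These were *Ndufb7* (1149 against 749 RPM), *Ndufa3* (2210 against 1661), *Ndufs8* (776 against 584) and *Ndufv1* (757 against 554), each the mean over embryos. The list had a median log2 fold change of 0.07, against -0.01 over all genes tested, with 14 members (18.9%) higher and 7 (9.46%) lower with B6 mothers at an unadjusted litter-test p under 0.05, where all genes tested gave 8.57% and 16.2%. Genes named from a list by their embryo-test call were chosen after their values were seen. Over all genes tested 1.37% were called higher with B6 mothers. In the list the smallest litter-test p belonged to *Ndufs4*, of the same complex, which was lower with B6 mothers at 22.8 against 56 RPM.

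Of 23 genes of striated muscle, 21 had a positive log2 fold change, with a median of 0.24, where 49.5% of all genes tested had a positive one. *Tnnc1* (197 against 121 RPM) and *Tnni1* (484 against 301), which encode the calcium-binding and the inhibitory subunit of troponin in slow muscle, were called. Over all genes tested 1.37% were called higher with B6 mothers. At an unadjusted litter-test p under 0.05, 8 members (34.8%) were higher with B6 mothers and 0 with F1 mothers, against 8.57% and 16.2% of all genes tested. *Myl3*, a ventricular and slow muscle light chain, had 212 against 146 RPM. Summed over the list, the lane means were 5248, 5233 and 4674 RPM in lanes A, B and F, 4787 in lane C, and 3806, 3814 and 4385 in lanes D, E and G. Lane C lay below lanes A and B and above the 1 embryo of lane F, and the other F1-mother lanes lay below it. The median of the list was 0.15 against lane C alone and 0.39 against lanes D, E and G. In flowcell 2, where the mothers were not matched in stage, it was 0.90, and all genes tested in both flowcells had 0.19.

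Genes of DNA replication and S phase had a median below 0. Of 34 tested, 23 had a negative log2 fold change, with a median of -0.34, and 13 (38.2%) were higher with F1 mothers at an unadjusted litter-test p under 0.05 and 1 (2.94%) with B6 mothers, against 16.2% and 8.57% of all genes tested. *Pole*, the catalytic subunit of polymerase epsilon, was the single member called (8.11 against 45.3 RPM), where 0.333% of all genes tested were called higher with F1 mothers. *Dut*, which removes dUTP, had 53.1 against 228 RPM, and *Pole2*, a further subunit of polymerase epsilon, 14.2 against 21.6. The summed list had 3756, 4078 and 3863 RPM in lanes A, B and F, 4025 in lane C and 4579 to 5234 in lanes D, E and G. Against lane C alone its median was -0.03, and against lanes D, E and G -0.40. Proteasome subunits (34 tested) had a median of -0.36 over all litters, 0.09 against lane C and -0.35 against lanes D, E and G. In the list 1 member (2.94%) was higher and 10 (29.4%) lower with B6 mothers at an unadjusted litter-test p under 0.05. In the embryo test 0 of the 34 were called, where 1.70% of all genes tested were called. *Psma2* had 25.8 against 175 RPM, but its log2 fold change against lane C was 0.07. Glycolysis enzymes (13 tested, median -0.34) had 5 members (38.5%) higher with F1 mothers at an unadjusted p under 0.05, with the smallest p for *Eno3* and *Tpi1*. The list's median was -0.08 against lane C and -0.35 against lanes D, E and G. Against lane C alone the log2 fold change was 0.03 for *Eno3* and 0.24 for *Tpi1*, but -0.53 for *Hk1* and -0.77 for *Hk2*, which were also among the 5.

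Among 18 PPAR targets and other lipid genes, *Angptl4* was called on the side of the B6 mothers and *Acaca*, the acetyl-CoA carboxylase that commits carbon to fatty acid synthesis, on that of the F1 mothers (5.03 against 52.2 RPM). Over all genes tested 1.37% and 0.333% were called on these sides. The list's median log2 fold change was 0.21 over all litters and 0.03 against lane C alone, and its summed level overlapped between the mothers, with litter means of 1129 to 1342 RPM against 1052 to 1440. *Acaca* had a log2 fold change of -0.45 against lane C and of -3.61 against lanes D, E and G. Of 30 glutathione and peroxide enzymes 0 were called in the embryo test, where 1.70% of all genes tested were called, and the median was -0.04. With B6 mothers 1 (3.33%) was higher and 4 (13.3%) lower at an unadjusted litter-test p under 0.05, against 8.57% and 16.2% of all genes tested.

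Among the imprinted genes tested, 0 of 15 expressed from the maternal and 0 of 21 expressed from the paternal allele were called in the embryo test, where 1.70% of all genes tested were called, so that counts of 0 in lists of this size are near the background. The paternal list also holds *Usp5*, which is not known to be imprinted. A Cast allele at these genes was paternal with B6 mothers and maternal with F1 mothers, and the part of this in the values was not tested. By lane, large differences were again found between lane C and lanes D, E and G. *Ndn*, a gene of the Prader-Willi region, had 18.7 RPM with B6 mothers and 101 with F1 mothers, with a log2 fold change of -2.24 over all litters, 0.23 against lane C and -2.78 against lanes D, E and G. *Cdkn1c*, the imprinted inhibitor of cyclin-dependent kinases, had 497 against 1560 RPM and log2 fold changes of -1.55, -0.05 and -1.99 in the same order.

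**Figure D4:**
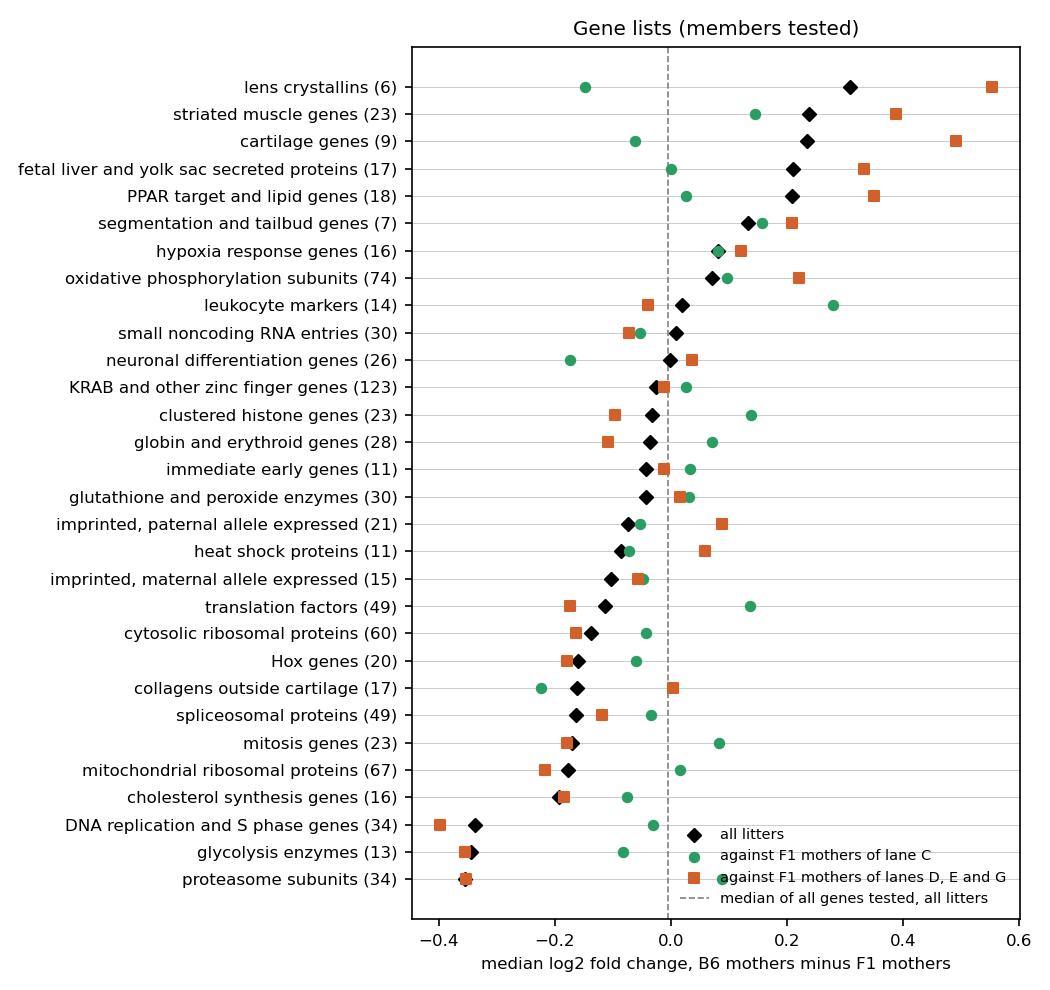
Median log2 fold change of litter sums, B6 minus F1 mothers (horizontal axis), of each gene list with at least 6 members tested (their number in brackets), over all litters (black), against the F1 mothers of lane C alone (green) and against those of lanes D, E and G alone (orange); the dashed line is the median of all genes tested. Proteasome subunits, for example, have medians of -0.36, 0.09 and -0.35.

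In flowcell 2 the medians of the lists did not all keep their sign. They were -0.13 for DNA replication genes and 0.34 for the lipid genes, each of the same sign as over all litters of flowcell 1, but 0.19 for proteasome subunits, 0.02 for glycolysis enzymes, 0.31 for cytosolic ribosomal proteins, 0.19 for translation factors and 0.14 for spliceosomal proteins, whose medians in flowcell 1 were below 0. The background moved as well, with a median of 0.19 in flowcell 2 over genes tested in both flowcells. Over all genes tested in flowcell 1 it was -0.01. Proteasome subunits and translation factors thus lay near the background of flowcell 2. Glycolysis enzymes and spliceosomal proteins lay below it, and cytosolic ribosomal proteins above it.

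Of the remaining lists, cytosolic ribosomal proteins (60 tested) had a median of -0.14 and 1 called member, *Rps9* (4033 against 2849 RPM), mitochondrial ribosomal proteins (67 tested) a median of -0.18 with *Mrps11* called on the side of the B6 mothers and *Mrpl52* on that of the F1 mothers, and translation factors (49 tested) a median of -0.11 with *Eif2b1* and *Eif5a* called on the side of the B6 mothers. Zinc finger genes (123 tested, median -0.03) had *Zfp362* and *Zfp651* called, neuronal differentiation genes (26 tested, median -0.002) *Tlx3*, heat shock proteins (11 tested, median -0.09) *Hspb8* and entries of small noncoding RNAs (30 tested, median 0.01) *Snord123*, all higher with B6 mothers. In the last list reads cannot be told from those of an overlapping host gene. Hypoxia response genes (16 tested, median 0.08) held *Angptl4* as their only called member. With 0 called members there were spliceosomal proteins (49 tested, median -0.16), mitosis genes (23, -0.17), clustered histone genes (23, -0.03), Hox genes (20, -0.16), collagens outside cartilage (17, -0.16), cholesterol synthesis genes (16, -0.19), immediate early genes (11, -0.04), cartilage genes (9, 0.23), segmentation and tailbud genes (7, 0.13), lens crystallins (6, 0.31) and noncoding RNAs of the kind of *Rpph1*, *Meg3* and *Malat1* (3, -0.06). Over all genes tested 1.37% were called higher with B6 and 0.333% with F1 mothers, so counts this small are near the background. At an unadjusted litter-test p under 0.05, 35% of Hox genes were higher with F1 and 5% with B6 mothers. These shares were 32.8% and 5.97% for mitochondrial ribosomal proteins and 31.25% and 0% for cholesterol synthesis genes. They were 5.88% and 0% for collagens, and 16.2% and 8.57% for all genes tested. Against lane C alone the median log2 fold changes were -0.06 for Hox genes, 0.01 for mitochondrial ribosomal proteins, -0.08 for cholesterol synthesis genes and -0.22 for collagens. Against lanes D, E and G alone they were -0.18, -0.22, -0.18 and 0.004 in the same order.

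Markers of cells other than those of the embryo proper were also read. Of 24 trophoblast and decidua markers 14 had no read in any of the 46 embryos, 0 passed the filter, and the sum of all 24 lay between 0.28 and 6.34 RPM with B6 mothers and between 0.00 and 8.47 RPM with F1 mothers. At genes where an embryo carried B6 alleles only, 0.219% of allele votes were for Cast with B6 mothers and 0.192% with F1 mothers, whose own tissue carries a Cast allele. Globin and erythroid genes (28 tested) summed to litter means of 66957 to 151004 RPM with B6 mothers and 83216 to 180125 RPM with F1 mothers, leukocyte markers (14 tested) to 455 to 632 RPM against 447 to 732 RPM, and secreted proteins of fetal liver and yolk sac (17 tested) to 1509 to 3177 RPM against 1242 to 3001 RPM. In each of these lists the litters of the mothers overlapped and 0 members were called in the embryo test, where 1.70% of all genes tested were called. In bulk samples fewer cells of a type and less RNA per cell cannot be told apart.

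The base composition of the transcripts' ends moved with the difference. Over the last 500 bases of the longest annotated transcript, the median GC content was 51.2% for the genes called higher with B6 mothers, 42.4% for those called higher with F1 mothers and 47.4% for all genes tested. Split into 4 groups of rising GC, the 2056 genes of the lowest group had a median log2 fold change of -0.19 over all litters and the 2027 of the highest group one of 0.16. Against lane C these medians were -0.07 and 0.06, and against lanes D, E and G -0.16 and 0.26. The part of base composition in the calls was not tested.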

How the data were processed

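Single N2 embryos were profiled by 3SEQ. After trimming, reads were aligned with Bowtie2 on mm9, those with a close second hit were dropped, and the authors deposited raw read counts on the exons of RefSeq genes (tool and build from the submitters' processing notes). Deposited allele votes, which are estimated counts, gave only the share of Cast votes, and deposited genotype codes the heterozygous share and the genotype covariate. F1 embryos were not used here. Group, litter, lane and somite number came from the labels; 8 columns whose labels name no mother were not used. RPM were computed here from the counts and the total on genes.

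The 21044 autosomal genes of 22033 were filtered at a mean of 5 RPM over the 46 embryos. The embryo test was the two-sided Mann-Whitney U test (normal approximation) with Bonferroni adjustment, as in the study's methods, and the litter and lane tests were edgeR's quasi-likelihood test (edgeR 4.0.16, TMM) on summed counts with Benjamini-Hochberg adjustment. Alternatives used DESeq2 1.42.0 and limma 3.58.1 (R 4.3.3, scipy 1.17.1). The embryo test counts embryos, but the litter is the unit in which mothers were sampled, and lanes are pools of libraries. F1 litter 2 lay in lanes D and E and F1 litter 6 in lanes D and G, so these lanes share mothers and are not independent in the lane test. On counts simulated for the 8421 genes with 200 changed by 1.5-fold, the litter test recovered 98% of them (4 false calls), the lane test 95% (4), the embryo test 30.5% (0) and the interaction 63.5% (4). That simulation held no lane or litter differences, since embryos were drawn independently at a fixed dispersion. In the data the correlation within litters was 0.34 and within lanes 0.30. The shares recovered therefore do not measure what the tests could find in these embryos.

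Named genes were the 12 of smallest litter-test p in each direction, 3 genes named by the study, and up to 3 members of smallest p in each gene list. The members and lists were chosen with earlier results of these data known. Coordinates are from GENCODE on mm9, GC content was found for 97.4% of genes tested, and fold changes are B6 minus F1 mothers. One member of the lipid list is not reported here.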

Additional observations from a re-analysis of the deposited data

Results flagged for a closer look

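Over the litter means of the 26 leading genes, 52 groups were examined for a litter far from the others, and 2 were found, where chance gives about 1 in 20. *Hoxb3* was at 53.1 RPM in F1 litter 1, a single embryo of lane E, where the other 7 F1 litters lay between 19.4 and 32.6 RPM. *Shc2* was at 10.4 RPM in B6 litter 12, where the other 4 B6 litters lay between 7.89 and 8.19 RPM. Neither litter changes the direction of its gene, since without it the litter means of the mothers lie further apart for *Shc2* and still do not overlap for *Hoxb3*.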

How the results depend on the processing

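No paired analysis was possible because replicate numbers were given in accession order and no label pairs a B6-mother with an F1-mother embryo, so no replicate block was fitted.

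The embryo test (143 genes) gave 127 with TMM-scaled totals, 141 without globins, 98 at 1 RPM, 201 at 20 RPM and 177 with all somite numbers, within 1.5 times of it. It moved further to 72 without a filter, 4957 with Benjamini-Hochberg adjustment, 697 with the embryo's genotype in a linear model, 4288 with edgeR and 4359 with DESeq2 over embryos, and 0 with litter means, lane means, 47 to 50 somites, females only or males only (unadjusted p under 0.05 for 1402, 0, 5023, 1635 and 4862 genes), where the group sizes let no gene pass even at complete separation (smallest adjusted p 1, 1, 0.102, 1 and 0.138). Leaving out 1 litter gave 5 to 268 genes, more than 1.5 times away for B6 litters 16 (5), 12 (11), 18 (14) and 8 (69) and F1 litters 2 (22), 3 (36), 6 (36) and 4 (268). Leaving out 1 lane gave 0 to 844 (lanes A and B 0, D 6, E 43, G 79, C 844). The 0s without lanes A and B say nothing of those lanes, since 9 against 29 embryos allow no adjusted p under 0.068, and without B6 litter 16 or lane D it can reach only 0.00562 and 0.00402. No matched embryo of this window lacks genotypes, so that alternative gave no value.

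The litter test (0 genes) stayed at 0 with DESeq2 size factors, total counts, limma on litter means, other filters, somite number as covariate or all somite numbers. It gave 871 with DESeq2, 1453 and 482 with voom and litter or lane as a random block, 1085 at 47 to 50 somites, 1575 with litters of at least 3 embryos and 658 with the share of females as covariate. Leaving out 1 litter gave 0 each time, and leaving out 1 lane 0 to 2941 (without lane C), with 1 gene without lane D. The lane test (0) gave 437 with DESeq2 and 0 to 1620 (without lane C) with 1 lane left out. The interaction stayed at 0 without a filter and without the litters of both flowcells.

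Alternatives chosen after seeing the data gave, in the embryo test, 0 for the F1 mothers of lane C only, 844 for those of lanes D, E and G only, 0 for lanes A, B and C only (1886 at an unadjusted p under 0.05) and 280 without the lane G library that stood apart. Both 0s were set by the group sizes (17 and 16 against 6 embryos, smallest adjusted p 1). In the litter test they gave 0, 2941, 0 and 0, and 409 at an adjusted p under 0.1. The cause of the other moves was not tested.

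All 26 leading genes kept their direction under every litter-test alternative that could be fitted. Apart from *Gpx3* and *Polm*, they were chosen by their small litter-test p in these embryos. Most alternatives refit the same embryos, so the kept direction is no independent test. *Polm* was under the filter in the fit with lane C alone. *Angptl4* ranged from 0.55 to 0.75 and passed 0.05 in 9 of 37 alternatives. Among list members the log2 fold change turned sign against F1 mothers of lane C alone for *Psma2* (0.071), *Lsm6* (0.13), *Rpph1* (0.068), *Dnajb1* (0.38), *Eno3* (0.028), *Tpi1* (0.24), *Kdm3a* (0.92), *Cpox* (0.69), *Fcgr3* (0.40), *Crybb1* (-0.16), *Col1a2* (0.080), *Mki67* (0.74) and *Ndn* (0.23), and with lanes A, B and C alone for *Hist1h2bj* (-0.028), *Rpph1* (0.0067), *Dnajb1* (0.32), *Eno3* (0.026), *Cpox* (0.23), *Fcgr3* (0.38), *Crybb1* (-0.10), *Col1a2* (0.13), *Mki67* (0.43), *Cdkn1c* (0.068) and *Ndn* (0.16). With all somite numbers *Cryba4* (-0.22) and *Crybb1* (-0.30) turned. *Meg3* turned without lane C or with lanes D, E and G alone (0.046) and with litters of at least 3 embryos (0.29), and ranged from -0.41 to 0.046 with 1 litter or lane left out. *Rpph1*, near 0 throughout, ranged from -0.12 to 0.16 with 1 litter or lane left out and was 0.010 with voom and the litter block, and *Malat1* ranged from -0.62 to 0.40 with 1 litter or lane left out and turned with limma (-0.30) and with the share of females (-0.32). Depth limits genes near 5 RPM most.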
